A study of Mus musculus with 50 samples.

Results

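The 9 genes described here write, remove or read cytosine methylation: Dnmt1, Dnmt3a, Dnmt3b, Uhrf1, Tet1, Tet2, Tet3, Mbd2 and Gadd45b. They were chosen by name and matched to the gene symbols of the count tables, where all 9 were found among 53700 genes, and all 9 were among the 16696 genes that passed the filter on low counts. Microglia, the resident macrophages of the brain, were sorted as viable CD45int CD11b+ cells from the hippocampi of 50 male C57BL/6J mice, with 1 mRNA library made per mouse. The study asked how early-life stress (ELS), given as limited bedding and nesting material from postnatal day (P) 2 to P9, acts on these cells against control (CTR) housing, at once at P9 and later at P200. The adults were injected with PBS or with LPS (1 mg/kg), the endotoxin of Gram-negative bacteria, and their cells were taken 3 h later.

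The groups were 12 P9-CTR and 13 P9-ELS mice, which were not injected, and 7 P200-CTR-PBS, 7 P200-CTR-LPS, 6 P200-ELS-PBS and 5 P200-ELS-LPS mice. Mice are named as in the labels. The number before the point in the name of a mouse was treated as its nest, which the labels do not define, and within an age each nest held mice of 1 early-life condition, so that nest and condition are not independent. Myelin was removed with Percoll at P200 and not at P9, only the adults were injected, and the ages were separate cohorts. Age therefore cannot be told apart from isolation, injection or cohort. In bulk samples, fewer cells that express a gene and less RNA per cell cannot be told apart either.

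DNA methylation in mammals sits mainly on the cytosine of CpG dinucleotides. Dnmt3a and Dnmt3b place methyl groups on unmethylated DNA, whereas Dnmt1 copies the pattern onto the new strand after replication and is brought there by Uhrf1, which binds hemimethylated CpG. Tet1, Tet2 and Tet3 oxidise 5-methylcytosine as a step towards its removal, Mbd2 binds methylated CpG and recruits the NuRD deacetylase and remodelling complex, and Gadd45b is a stress-inducible protein that has been linked to active demethylation.

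Total counts per mouse ranged from 5152838 to 42231258. Fewer genes were detected in P9_19.3_ELS (12482), P200_1.1_CTR_PBS (12854) and P9_19.2_ELS (15731) than in the other 47 mice (16485 to 21100), and leaving these 3 mice out, an alternative chosen after seeing the data, changed 2 calls of the 9 genes, those of Tet3 with age in ELS and Tet2 with LPS in CTR. All 10 microglia markers had a median above 1 CPM, the count scaled to the size of the library, in every group. Markers of neurons and of border-associated macrophages were higher at P9. The 8 neuron markers summed to 71.4 to 197 CPM per mouse in P9-CTR, 40.2 to 156 in P9-ELS, 2.54 to 11.9 in P200-CTR-PBS and 4.13 to 9.76 in P200-ELS-PBS, where 7 and 5 of the 8 had a median above 0. The 6 markers of border-associated macrophages summed to 550 to 920, 475 to 909, 2.84 to 10.6 and 4.23 to 6.46 CPM in the same groups, and 3 and 4 of the 6 had a median above 0 in the adults. Of 7 astrocyte markers, 6 were lower at P200 in both conditions (median log2 fold change of the list -4.77 in CTR and -5.01 in ELS), while Slc1a3 was higher. Of 4 tested markers of oligodendrocyte precursors, 3 were lower in CTR and 2 in ELS. The part of these cells in the differences with age was not tested.

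In GRCm39, Dnmt1 lies at chr9:20817945-20871184, Dnmt3a at chr12:3856007-3964443, Dnmt3b at chr2:153490861-153529650 and Uhrf1 at chr17:56610275-56630489. Tet1 lies at chr10:62640349-62744775, Tet2 at chr3:133169436-133250900, Tet3 at chr6:83339355-83436066 and Gadd45b at chr10:80764523-80768038. Of the exon bases of Tet3, 9.06% also belong to exons of Bola3 on the other strand, and the strand setting of the counting is not given in the sources used here, so that reads there cannot be assigned to either gene. Overlaps with lncRNAs covered 3.36% of the exon bases of Dnmt3b and at most 1.24% of those of Dnmt3a, Tet2 and Mbd2.

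Promoter windows of the genes with the largest changes with age or LPS are shown, because CpG is the dinucleotide on which these proteins act. Each is the 250 bases before the start of the canonical transcript in GRCm39, written 5′ to 3′ on the strand of the gene with CpG in capitals. They lie at chr17:56610025-56610274 (plus strand) for Uhrf1, chr9:20864276-20864525 (minus strand) for Dnmt1, chr10:80765657-80765906 (plus strand) for Gadd45b and chr10:62715794-62716043 (minus strand) for Tet1.
Uhrf1: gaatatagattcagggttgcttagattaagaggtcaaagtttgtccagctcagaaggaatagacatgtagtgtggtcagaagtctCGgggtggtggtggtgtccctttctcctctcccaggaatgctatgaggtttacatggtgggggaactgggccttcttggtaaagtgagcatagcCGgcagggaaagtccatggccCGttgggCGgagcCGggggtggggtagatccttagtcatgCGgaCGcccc
Dnmt1: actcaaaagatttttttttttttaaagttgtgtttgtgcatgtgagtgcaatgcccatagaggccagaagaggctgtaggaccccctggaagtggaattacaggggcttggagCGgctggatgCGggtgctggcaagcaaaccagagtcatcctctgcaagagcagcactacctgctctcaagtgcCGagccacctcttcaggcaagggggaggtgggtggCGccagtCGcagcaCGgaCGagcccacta
Gadd45b: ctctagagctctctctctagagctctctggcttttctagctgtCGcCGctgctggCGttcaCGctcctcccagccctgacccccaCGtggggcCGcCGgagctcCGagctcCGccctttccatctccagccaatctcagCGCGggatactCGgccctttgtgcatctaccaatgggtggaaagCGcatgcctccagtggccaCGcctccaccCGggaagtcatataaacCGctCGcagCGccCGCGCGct
Tet1: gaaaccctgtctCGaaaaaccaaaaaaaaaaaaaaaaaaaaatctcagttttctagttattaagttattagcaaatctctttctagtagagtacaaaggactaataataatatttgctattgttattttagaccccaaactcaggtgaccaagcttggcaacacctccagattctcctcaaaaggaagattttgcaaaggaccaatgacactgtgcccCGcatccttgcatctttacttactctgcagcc

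The windows of 8 of the genes were examined, and Mbd2 was not analysed here. Except for Uhrf1, the annotated gene extends upstream of its canonical start. For Tet1 that start is at 62715793 and the gene reaches 62744775. Windows at other starts were not examined, so the counts hold for the canonical start only. The windows held 7 CpG in Uhrf1, 7 in Dnmt1, 21 in Gadd45b and 2 in Tet1, against a median of 8 in 21770 promoters of protein-coding genes. Those of Dnmt3a and Tet3 held 39 and 38, and those of Dnmt3b and Tet2 17 each. Motifs were searched on both strands with overlapping matches counted. TTTNNCGC, the letters of the E2F motif of S phase genes, was in none of the 8 windows and in 5.14% of all promoters, and the CRE letters TGACGTCA were in none and in 1.70%. The kappaB motif had 4 matches in Tet3, 3 in Dnmt3b and 1 in Tet2, and was in 7.62% of all promoters. The CCAAT box had 2 matches in Gadd45b, 1 in Tet1 and 1 in Dnmt3b, and was in 36.5% of all promoters. A match of letters is a description and not a binding site.

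To compare levels between genes, CPM was divided by the length of all exons (RPKM). This length is 17028 bases for Dnmt3a, 8500 for Dnmt1 and 5277 for Uhrf1, and the order depends on it. The transcripts present may be shorter. In CPM Dnmt3a led in P9-CTR, with a mean of 107.6, against 81.2 for Dnmt1 and 64.8 for Uhrf1. In RPKM the maintenance pair led at P9. In P9-CTR the mean level was 12.3 ± 2.98 RPKM (SD, n = 12) for Uhrf1, 9.56 ± 2.37 for Dnmt1 and 6.32 ± 0.741 for Dnmt3a, followed by Tet2 (3.40 ± 0.806), Tet3 (2.14 ± 0.426) and Tet1 (0.994 ± 0.317). Mbd2 (0.484 ± 0.127), Dnmt3b (0.398 ± 0.213) and Gadd45b (0.281 ± 0.149) were lowest. Uhrf1 and Dnmt1, and the neighbours within the lowest trio, differed by less than the sum of their SDs, and the other neighbours in this order by more. In P200-CTR-PBS Tet2 (3.78 ± 1.04 RPKM, n = 7) and Dnmt3a (3.26 ± 1.09) led with overlapping spreads, and Uhrf1 (0.196 ± 0.237) was next to last. In P200-CTR-LPS Gadd45b led with 11.3 ± 8.2 RPKM (n = 7) and Tet1 was last with 0.205 ± 0.108. Gadd45b and Tet1 were also first and last in P200-ELS-LPS in RPKM, with 13.0 ± 6.84 and 0.144 ± 0.113 RPKM (n = 5). In CPM Tet2 led there, with a mean of 76.7, against 38.7 for Gadd45b.

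**Figure D1:**
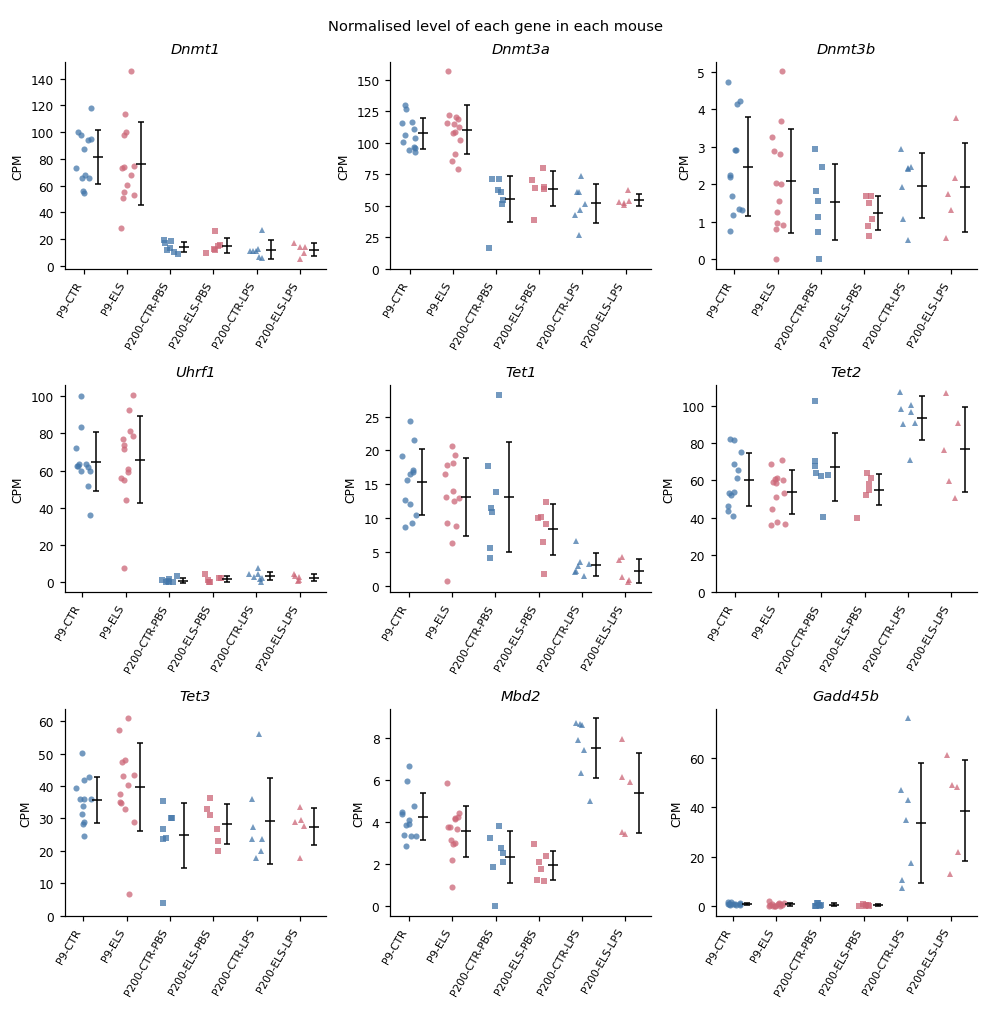
CPM of the 9 genes (vertical axes, each gene on its own linear scale) in each of the 50 mice by group, with a black bar for the mean ± SD. Uhrf1 and Dnmt1 are high at P9, and Gadd45b is at most 2.04 CPM at P9 and in PBS-injected adults and reaches 76.1 CPM after LPS.

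The comparison of P9 with PBS-injected adults asked how the genes differ between the growing and the mature brain. In CTR mice 4 of the 9 genes passed an adjusted p under 0.05 (edgeR's quasi-likelihood test, Benjamini-Hochberg over 16696 genes), and all 4 were lower at P200, against 44.1% of all genes that passed and 26.6% that were lower. In ELS mice the same 4 genes passed and were lower, against 42.2% and 25% of all genes. They were Uhrf1, Dnmt1, Dnmt3a and Mbd2. The median log2 fold change of the 9 was -0.83 in CTR and -0.80 in ELS, beside -0.09 and -0.01 over all genes. The CPM of the ages did not overlap for 3 of the 9 genes in CTR and for 2 in ELS, all lower at P200, as for 10.5% and 7.03% of all genes.

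Uhrf1 fell most of the 9. It ranged from 36.3 to 100.4 CPM (median 62.8) in P9-CTR mice and from 0 to 3.47 CPM (median 0.820) in P200-CTR-PBS, where 2 of 7 mice had no count. In P9-ELS it was at 7.75 to 101 CPM (median 71.5), and in P200-ELS-PBS at 0 to 4.45 CPM (median 1.62). Every P9 mouse was above every PBS-injected adult of its condition, and the lowest P9 value was that of P9_19.2_ELS, 1 of the 3 mice with few genes, while the next lowest P9-ELS mouse was at 44.2 CPM. The log2 fold change was -6.0 (SE 0.65, adjusted p = 9.09e-11) in CTR and -5.29 (SE 0.66, adjusted p = 4.40e-09) in ELS, and -5.79 and -5.34 without the 3 mice.

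Dnmt1, the maintenance enzyme, followed the same course at a smaller size. P9-CTR mice had 54.2 to 118 CPM (median 80.3) and P200-CTR-PBS mice 9.2 to 19.0 CPM (median 13.4). In ELS it was at 28.1 to 145 CPM (median 73.3) at P9 and 9.34 to 26.0 CPM (median 13.8) at P200. The ages did not overlap in either condition. Its log2 fold change was -2.52 (SE 0.28, adjusted p = 1.48e-10) in CTR and -2.34 (SE 0.29, adjusted p = 3.85e-09) in ELS. The P9 mean was 5.75 times the P200 mean in CTR and 5.07 times in ELS. P9_19.2_ELS was the lowest pup, and without the 3 mice with few genes the log2 fold changes were -2.46 and -2.36.

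The de novo enzymes moved less. Dnmt3a ranged from 93.0 to 130.1 CPM (median 105.0) in P9-CTR mice and from 16.8 to 71.2 CPM (median 60.8) in P200-CTR-PBS, without overlap, and the lowest value was that of P200_1.1_CTR_PBS. In ELS it was at 79.1 to 157 CPM (median 113) at P9 and 38.9 to 80.3 CPM (median 64.7) at P200, and the highest adult was above the lowest pup. Its log2 fold change was -0.95 (SE 0.17, adjusted p = 8.53e-06) in CTR and -0.80 (SE 0.18, adjusted p = 2.55e-04) in ELS, and -0.80 and -0.76 without the 3 mice. Dnmt3b was at 0 to 5.00 CPM at P9 and 0 to 2.94 CPM in PBS-injected adults. Its log2 fold changes of -0.69 (SE 0.51, adjusted p = 0.283) and -0.77 (SE 0.54, adjusted p = 0.261) did not pass.

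The balance of maintenance and de novo enzyme differed in level between the ages. The ratio of Dnmt1 to Dnmt3a RPKM was 1.52 ± 0.344 (SD, n = 12) in P9-CTR and 0.583 ± 0.311 (n = 7) in P200-CTR-PBS, and 1.44 ± 0.618 (n = 13) and 0.479 ± 0.147 (n = 6) in ELS. The ages overlapped in CTR, where the lowest pup was at 0.940 and the highest adult, P200_1.1_CTR_PBS, at 1.27, and in ELS, where the lowest pup was at 0.358. Without the 3 mice the ratio in P200-CTR-PBS was 0.469 ± 0.0780 (n = 6), and the highest adults (0.556 in CTR and 0.658 in ELS) were below the lowest pups (0.940 and 0.914). The ratio was not tested.

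The dioxygenases did not pass with age in either condition. Tet2 ranged from 41.0 to 82.2 CPM (median 57.4) in P9-CTR mice and from 40.6 to 103 CPM (median 63.9) in P200-CTR-PBS mice, with log2 fold changes of 0.15 (SE 0.16, adjusted p = 0.448) in CTR and 0.04 (SE 0.16, adjusted p = 0.881) in ELS. Tet1 had -0.23 (SE 0.37, adjusted p = 0.655) and -0.65 (SE 0.40, adjusted p = 0.188). Tet3, whose exons overlap with Bola3, had -0.53 (SE 0.26, adjusted p = 0.0955) and -0.49 (SE 0.27, adjusted p = 0.149). Averaged over both conditions, a contrast added after seeing the data, Tet3 was lower at P200 (log2 fold change -0.51, adjusted p = 0.0190), and without the 3 mice with few genes it passed in ELS (-0.53, adjusted p = 0.0118).

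The reader Mbd2 was low at both ages. Its range was 2.88 to 6.70 CPM (median 4.02) in P9-CTR mice and 0 to 3.83 CPM (median 2.53) in P200-CTR-PBS. In ELS it was at 0.896 to 5.88 CPM (median 3.78) at P9 and 1.21 to 2.95 CPM (median 1.94) at P200. The ages overlapped in both conditions. The log2 fold change was -0.87 (SE 0.35, adjusted p = 0.0406) in CTR and -0.88 (SE 0.37, adjusted p = 0.0493) in ELS, close to the threshold. The call was lost without a filter on low counts (adjusted p = 0.0791 and 0.0915) and when any of P200_5.2_CTR_PBS, P200_18.1_CTR_PBS, P200_18.2_CTR_PBS, P200_2.1_ELS_PBS, P200_4.1_ELS_PBS, P200_17.1_ELS_PBS, P200_17.2_ELS_PBS or P200_20.2_ELS_PBS was left out (adjusted p from 0.0532 to 0.121). Without the 3 mice with few genes, of which P200_1.1_CTR_PBS had no count, the log2 fold change was -0.65 (adjusted p = 0.0125) in CTR and -0.89 (adjusted p = 9.83e-04) in ELS. Gadd45b had a median of 0.796 CPM in P9-CTR and 0.205 CPM in P200-CTR-PBS, with log2 fold changes of -0.83 (SE 0.69, adjusted p = 0.348) in CTR and -1.04 (SE 0.75, adjusted p = 0.272) in ELS.

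**Figure D2:**
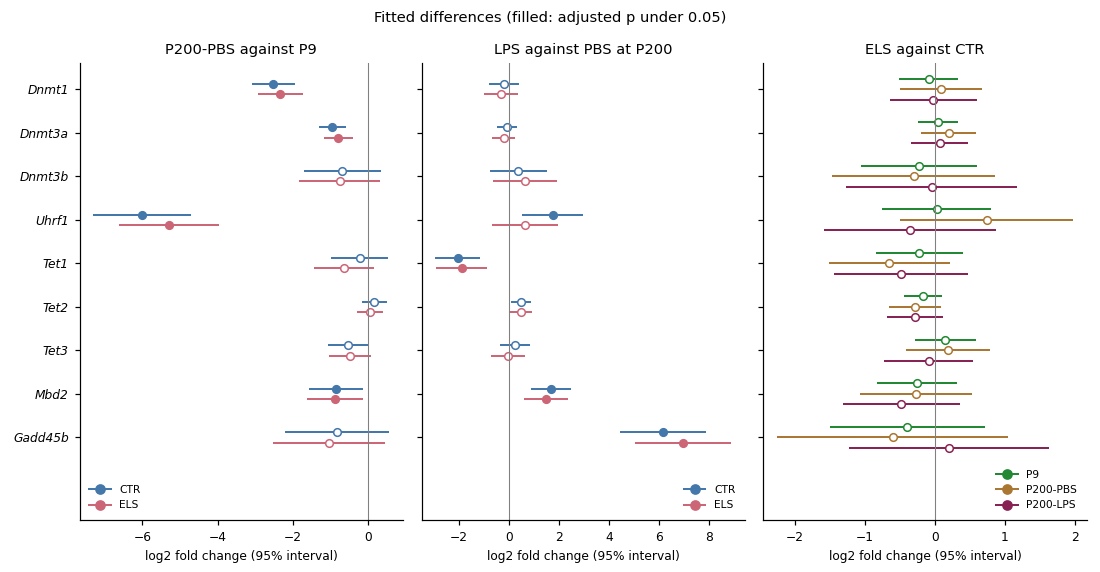
Fitted log2 fold change of each gene (horizontal axes) with its 95% interval, for P200-PBS against P9, LPS against PBS, and ELS against CTR. Filled points passed an adjusted p under 0.05 in edgeR's quasi-likelihood test. Uhrf1 lies lowest with age, Gadd45b highest and Tet1 lowest with LPS, and no point of ELS against CTR is filled.

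Genes with related roles were grouped in lists and compared with age. Over all genes 26.6% were lower at P200 in CTR and 25% in ELS. Of the 9 tested writer partners, 8 were lower at P200 in CTR and 6 in ELS, and 0 were higher. Hells, a remodeller needed for maintenance methylation, had a mean of 40.4 ± 8.57 CPM (SD) in the 12 P9-CTR mice and of 1.1 ± 0.573 CPM in the 7 P200-CTR-PBS mice, a log2 fold change of -5.20 (SE 0.48, adjusted p = 6.16e-13). Lig1, the ligase of the lagging strand, changed by -3.59 and Pcna, the replication clamp, by -1.61 on the log2 scale. Pcna is also among the 16 S phase and mitosis markers, all of which were lower at P200 in both conditions, with a median log2 fold change of -4.08 in CTR and -3.92 in ELS. Their summed level was 2038 to 2781 CPM per mouse in P9-CTR and 226 to 273 CPM in P200-CTR-PBS. The part of dividing cells in the levels of Uhrf1 and Dnmt1 was not tested.

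Of 15 tested genes of demethylation and base excision repair, 3 were higher and 7 lower at P200 in CTR, and 3 and 6 in ELS. Over all 16696 genes, 2911 were higher in CTR and 2863 in ELS, and 26.6% and 25% were lower. Neil3, a DNA glycosylase, fell most in CTR, from 34.6 ± 14.5 CPM (SD, n = 12) to 0.0620 ± 0.132 CPM (n = 7), with log2 fold changes of -9.31 in CTR and -5.45 in ELS whose size rests on few adult counts. Ung, which removes uracil, changed by -3.10 and -5.85. Tdg, the glycosylase that removes oxidised methylcytosine, averaged 33.9 ± 8.82 CPM at P9 and 10.9 ± 4.42 CPM at P200 in CTR (log2 fold change -1.63, SE 0.21, adjusted p = 1.23e-08). Of 9 genes in the list named other methyl-CpG readers, 3 were higher and 3 lower in CTR, and 2 and 0 in ELS. Whether each of their proteins binds methylated CpG was not examined. Zbtb4 was higher (log2 fold change 1.26 in CTR and 1.06 in ELS), whereas Mbd3, a NuRD subunit that is in both lists, was lower in CTR (-1.57). Of 13 NuRD genes 5 were lower in CTR and 6 in ELS, with Chd4, its helicase, at -2.10 and -1.81, and 0 were higher. Of 15 genes that supply S-adenosylmethionine or alpha-ketoglutarate, 4 were higher and 8 lower in CTR, and 3 and 7 in ELS, with Ahcy, which clears S-adenosylhomocysteine, at -2.36 and -2.25.

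**Figure D3:**
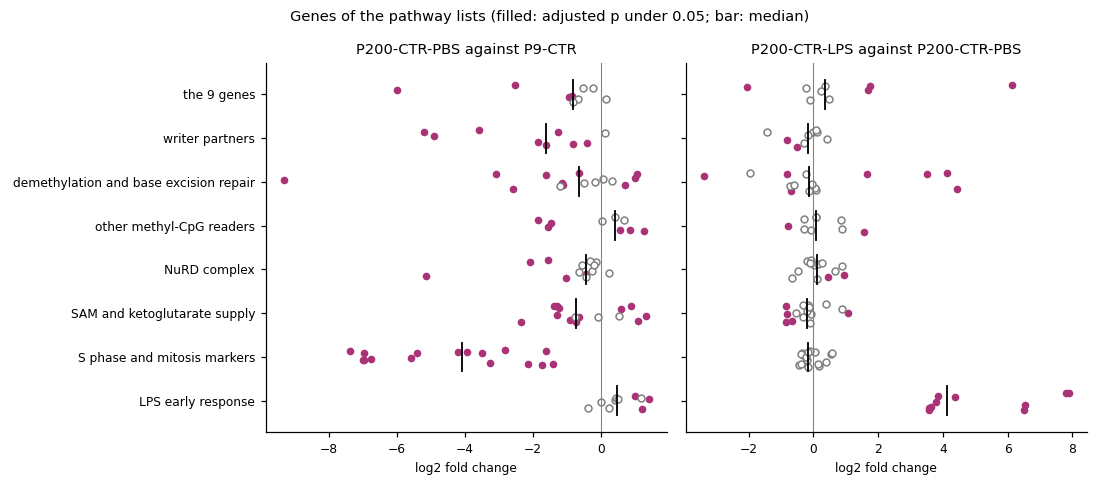
Log2 fold change (horizontal axes) of each gene of the lists, for P200-PBS against P9 in CTR and LPS against PBS in CTR, with a bar for the median of each list. The S phase and mitosis markers all lie below 0 with age (median -4.08), and the LPS early response genes all lie above 0 with LPS (median 4.12).

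The comparison of LPS with PBS asked which of the genes respond to an acute inflammatory stimulus. In CTR adults 3 of the 9 were higher (8.73% of all genes) and 1 lower (6.2% of all genes) at an adjusted p under 0.05. In ELS adults 2 were higher (7.4% of all genes) and 1 lower (4.94% of all genes). Gadd45b and Mbd2 were higher and Tet1 lower in both, and Uhrf1 was higher in CTR. The median log2 fold change of the 9 was 0.36 in CTR, beside 0.00 over all genes. The CPM of the groups did not overlap for Gadd45b and Mbd2 in CTR (4.92% of all genes higher without overlap) and for the same genes in ELS (5.65%). The treatment itself was visible in the 10 LPS early response genes, all of which rose in both conditions. Of the microglia markers, Sall1 (log2 fold change -1.73 in CTR and -2.01 in ELS) and P2ry12 (-0.62 and -0.58) were lower and Trem2 was higher in ELS (0.45). Markers of other cells also moved. In CTR 2 of 5 endothelial markers (Kdr, 2.28, and Cdh5, 2.06), 1 of 6 of border-associated macrophages (Cbr2, 3.37) and 1 of 7 of astrocytes (Slc1a3, 0.63) were higher, and in ELS 2 of 7 of astrocytes (Gja1, 4.47, and Gfap, 3.92). In CTR the astrocyte markers summed to 302 to 503 CPM with PBS and 486 to 618 CPM with LPS, and the endothelial markers to 39.3 to 71.1 and 60.9 to 93.7 CPM. The border-associated macrophage markers did not rise as a list in CTR. They summed to 2.84 to 10.6 CPM with PBS and 1.87 to 7.65 CPM with LPS (median log2 fold change of the list -0.38). In ELS the astrocyte sums were 316 to 456 and 423 to 586 CPM. The part of these cells in the differences with LPS was not tested.

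Gadd45b rose most of the 9. It was at 0 to 1.37 CPM (median 0.205) in P200-CTR-PBS, where 3 of 7 mice had no count, and at 7.15 to 76.1 CPM (median 34.7) in P200-CTR-LPS. In P200-ELS-PBS it was at 0 to 0.733 CPM (median 0.247), and the 5 P200-ELS-LPS mice were at 12.9, 21.8, 48.3, 49.2 and 61.1 CPM. No LPS-injected mouse was near the PBS range, while the LPS-injected mice themselves differed widely. The log2 fold change was 6.15 (SE 0.85, adjusted p = 1.68e-07) in CTR and 6.96 (SE 0.97, adjusted p = 2.15e-07) in ELS, with a median of 6 and 5 counts in the PBS groups, so that the size rests on few counts. Without the 3 mice with few genes it was 5.93 and 6.93.

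Mbd2 rose in both conditions. It was at 0 to 3.83 CPM (median 2.53) in P200-CTR-PBS and 4.99 to 8.75 CPM (median 7.93) in P200-CTR-LPS. In P200-ELS-PBS it was at 1.21 to 2.95 CPM (median 1.94), and the 5 P200-ELS-LPS mice were at 3.46, 3.54, 5.91, 6.14 and 7.96 CPM. The fitted log2 fold change was 1.69 (SE 0.39, adjusted p = 0.00135) in CTR and 1.47 (SE 0.44, adjusted p = 0.0169) in ELS. Without the 3 mice with few genes it was 1.47 in both, and without P200_17.3_ELS_LPS the call in ELS was lost (log2 fold change 1.29, adjusted p = 0.0615).

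Tet1 fell in both conditions. It was at 4.2 to 28.2 CPM (median 11.5) in P200-CTR-PBS and 1.48 to 6.58 CPM (median 2.91) in P200-CTR-LPS. In P200-ELS-PBS it was at 1.79 to 12.5 CPM (median 9.60), and the 5 P200-ELS-LPS mice were at 0.578, 0.933, 1.40, 3.89 and 4.33 CPM. The groups overlapped in both conditions. The log2 fold change was -2.06 (SE 0.44, adjusted p = 4.24e-04) in CTR and -1.9 (SE 0.51, adjusted p = 0.00713) in ELS. P200_1.1_CTR_PBS had the highest PBS value, and without the 3 mice the value in CTR was -1.76 (adjusted p = 3.87e-04).

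Tet2, the most abundant of the trio, had the same estimate in both conditions and did not pass in either. It was at 40.6 to 103 CPM (median 63.9) in P200-CTR-PBS and 70.7 to 107 CPM (median 96.6) in P200-CTR-LPS, with a log2 fold change of 0.48 (SE 0.18, adjusted p = 0.0597). In ELS it was at 40.0 to 64.0 CPM (median 56.2) with PBS and at 50.4, 59.8, 76.1, 90.5 and 107 CPM with LPS, with a log2 fold change of 0.48 (SE 0.20, adjusted p = 0.112). Without the 3 mice Tet2 passed in CTR (log2 fold change 0.61, adjusted p = 0.00638), and it passed in the contrast averaged over both conditions (0.48, adjusted p = 0.00541), both added after seeing the data. It also passed in CTR by the likelihood-ratio test (adjusted p = 0.0483), DESeq2 (0.0401) and limma voom with nest as a random effect (0.0220). Tet3 had log2 fold changes of 0.24 (SE 0.29, adjusted p = 0.675) and -0.04 (SE 0.33, adjusted p = 0.964), and 0.05 in CTR without the 3 mice. P200_1.1_CTR_PBS was at 3.97 CPM and the other P200-CTR-PBS mice at 23.7 CPM or more.

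With Tet1 lower, the make-up of the TET transcripts differed. The share of Tet1 in the summed TET RPKM was 13.1 ± 5.87% (SD, n = 7) in P200-CTR-PBS and 2.90 ± 1.61% (n = 7) in P200-CTR-LPS, and 10.2 ± 4.74% (n = 6) and 2.77 ± 2.57% (n = 5) in ELS. The share of Tet2 was 61.3 ± 7.58% and 73.6 ± 5.68% in CTR, and 58.05 ± 8.05% and 69.9 ± 7.09% in ELS. The summed TET level was 6.12 ± 1.14 and 7.22 ± 1.32 RPKM in CTR, within the spread of the mice. Without P200_1.1_CTR_PBS the share of Tet1 in P200-CTR-PBS was 11.4 ± 4.13% (n = 6). Shares and sums were not tested.

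**Figure D4:**
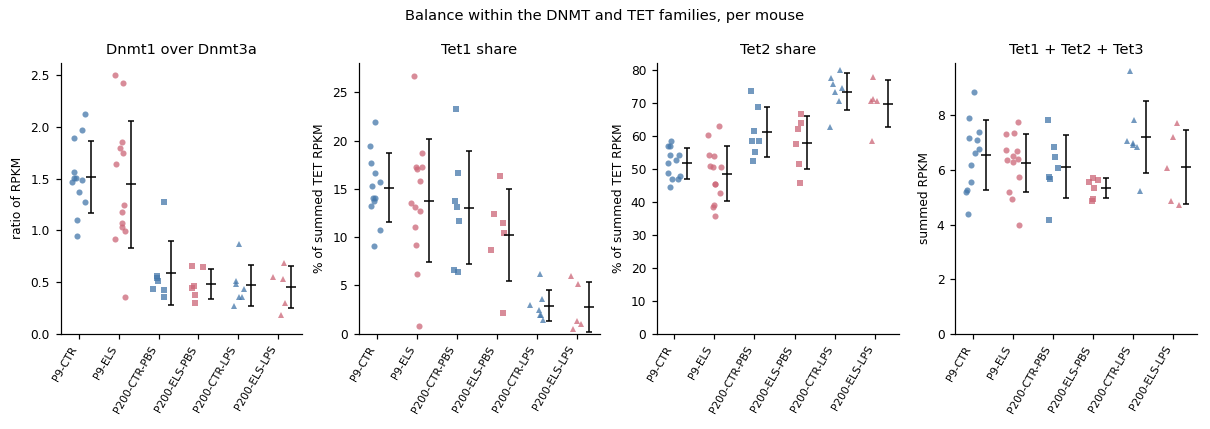
Ratio of Dnmt1 to Dnmt3a RPKM, share of Tet1 and of Tet2 in the summed TET RPKM, and summed TET RPKM (vertical axes) in each mouse by group. The mean Dnmt1 to Dnmt3a ratio is 1.52 in P9-CTR and 0.583 in P200-CTR-PBS, and the mean Tet1 share is 13.1% with PBS and 2.90% with LPS in CTR adults.

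None of the writers Dnmt1, Dnmt3a and Dnmt3b passed with LPS, and their partner Uhrf1 passed in CTR only. Uhrf1 is low in adults. Uhrf1 was at 0 to 3.47 CPM (median 0.820) in P200-CTR-PBS and 0.429 to 7.54 CPM (median 2.73) in P200-CTR-LPS, with overlap. The log2 fold change was 1.74 (SE 0.60, adjusted p = 0.0399). In ELS it was 0.64 (SE 0.65, adjusted p = 0.598), and the difference between the conditions was -1.10 (95% interval -2.83 to 0.64). The call in CTR was lost when any of 8 of the 14 mice was left out, for example P200_8.2_CTR_LPS (log2 fold change 1.41, adjusted p = 0.125), but not without the 3 mice with few genes together (1.53, adjusted p = 0.0380). Dnmt1 had log2 fold changes of -0.22 (SE 0.28, adjusted p = 0.702) and -0.33 (SE 0.32, adjusted p = 0.581), Dnmt3a of -0.09 (SE 0.19, adjusted p = 0.817) and -0.23 (SE 0.21, adjusted p = 0.558), with -0.25 in CTR without the 3 mice, and Dnmt3b of 0.36 (SE 0.56, adjusted p = 0.759) and 0.63 (SE 0.64, adjusted p = 0.601).

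Each of the 10 adult nests held mice of both treatments, which gave a comparison within nests. Gadd45b and Mbd2 were higher with LPS in 10 of 10 nests and Tet1 in 0 of 10. For Gadd45b and Mbd2 this count was fixed in advance and adds no support. Their CPM did not overlap between the treatments in either condition. The mean difference in log2(CPM + 1) was 4.37 ± 1.18 (SD over nests) for Gadd45b, 1.28 ± 0.808 for Mbd2 and -1.62 ± 0.866 for Tet1. Tet2 was higher in 9 of 10 nests (0.415 ± 0.289), Dnmt3b in 8 and Uhrf1 in 7. Dnmt1 and Tet3 were each higher in 5, and Dnmt3a in 3. These differences were not tested.

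**Figure D5:**
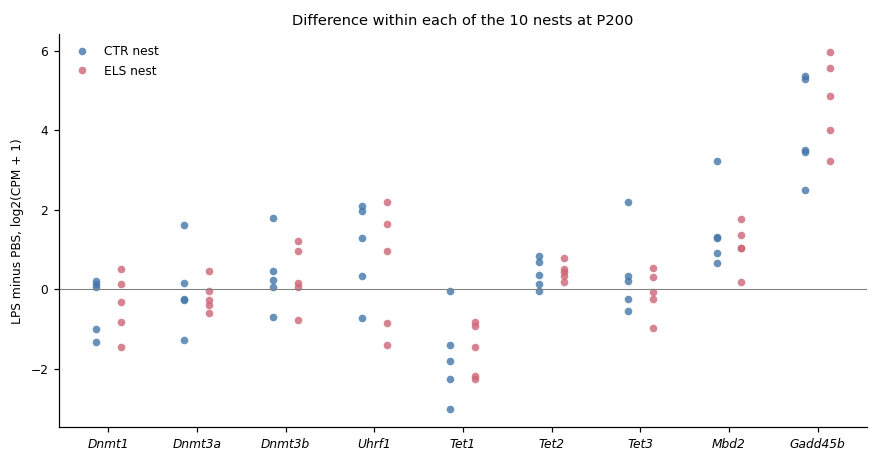
Difference between LPS- and PBS-injected mice of the same nest in log2(CPM + 1) for the 9 genes, 1 point for each of 10 nests. All points lie above 0 for Gadd45b and Mbd2 and below 0 for Tet1.

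The lists were compared between LPS and PBS in the same way. Over all genes 8.73% were higher and 6.2% lower in CTR, and 7.4% and 4.94% in ELS. Of 15 genes of demethylation and base excision repair, 4 were higher and 3 lower in CTR, and 2 and 2 in ELS. In CTR Neil3 was higher (log2 fold change 3.52) and Ung lower (-3.39), both with means under 4 CPM. In ELS the signs were opposite, with -1.93 for Neil3 and 0.78 for Ung, and neither passed. Gadd45g, a paralog of Gadd45b, was at 9.25 ± 3.13 CPM (SD, n = 7) with PBS and 162 ± 66.9 CPM (n = 7) with LPS in CTR (log2 fold change 4.13, SE 0.50, adjusted p = 5.48e-09), and had 3.80 in ELS. Tdg was at 10.9 ± 4.42 CPM with PBS and 34.4 ± 5.56 CPM with LPS in CTR (log2 fold change 1.65, SE 0.23, adjusted p = 1.72e-07), and had 1.47 in ELS. Of 9 tested writer partners 0 were higher, and Uhrf2 (-0.81) and Cdca7 (-0.52) were lower in CTR and Hells (-2.03) in ELS. Of 13 NuRD genes, Chd4 (0.95) and Hdac1 (0.44) were higher in CTR and Chd4 (0.72) in ELS, and 0 were lower. Of the 9 genes in the reader list, Mbd6 (1.56) was higher and Zbtb38 (-0.79) lower in CTR, and Zbtb38 (-1.14) lower in ELS. Of 15 supply genes 1 was higher and 4 lower in CTR, and 1 and 2 in ELS. Mat2a, the catalytic subunit that makes S-adenosylmethionine, was the one that rose (log2 fold change 1.07 and 1.18), and Mat2b, its regulatory subunit, fell (-0.85 and -0.91). Of the S phase and mitosis markers 0 changed in CTR, and Mcm6 (-0.78) was lower in ELS.

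ELS was then compared with CTR at P9, in PBS-injected adults and in LPS-injected adults. None of the 9 genes passed edgeR's quasi-likelihood test in any of the 3 comparisons, against 0%, 0.168% and 0% of all genes, and 0 had an unadjusted p under 0.05. Over all genes 914, 1622 and 798 had an unadjusted p under 0.05, while DESeq2 called 0, 178 and 2 genes and edgeR's likelihood-ratio test 1, 215 and 10. The smallest unadjusted p was that of Tet2 in each, with log2 fold changes of -0.17 (95% interval -0.43 to 0.09), -0.29 (-0.65 to 0.08) and -0.28 (-0.66 to 0.10). The intervals of Dnmt3a were also narrow, with 0.04 (-0.23 to 0.31) at P9, 0.20 (-0.18 to 0.58) with PBS and 0.07 (-0.33 to 0.46) with LPS. That of Gadd45b was wide, with -0.61 (-2.24 to 1.03) in PBS-injected and 0.20 (-1.22 to 1.62) in LPS-injected adults. By the numbers treated as nests, the P9-CTR mice came from 5 nests and the P9-ELS mice from 4. ELS was given to whole nests, while these p-values and intervals take mice as independent. They do not measure the spread between nests, so the precision may be overstated. Without the 3 mice with few genes 0 of the 9 passed in each of the 3, with log2 fold changes from -0.45 to 0.19 at P9, -0.80 to 0.53 with PBS and -0.48 to 0.20 with LPS. Averaged over the 3 comparisons, a contrast added after seeing the data, Tet2 had -0.25 (SE 0.10). Its unadjusted p in edgeR's quasi-likelihood test was 0.0171 and its adjusted p 0.448.

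Among the lists, 1 gene of demethylation and base excision repair passed with ELS, in PBS-injected adults. Neil3 was at 0.749 ± 0.739 CPM (SD, n = 6) in P200-ELS-PBS and 0.0620 ± 0.132 CPM (n = 7) in P200-CTR-PBS (log2 fold change 3.80, adjusted p = 0.0466), levels close to 0 in both groups. In the fit of the compared groups alone and in limma voom with nest as a random effect 0 genes passed in this comparison, so that the call was lost there. Of 7 astrocyte markers, Gfap was lower in the same comparison (log2 fold change -3.58, adjusted p = 0.0466), and its part in the value of Neil3 was not tested. The lists of writer partners, readers, NuRD and supply genes held 0 called genes in the 3 ELS comparisons.

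The interactions asked whether the differences with LPS or age were themselves different after ELS. None of the 9 passed either, against 0% of all genes for ELS and LPS and 0.0299% for ELS and age in edgeR's quasi-likelihood test, and 0 of the 9 had an unadjusted p under 0.05. Over all genes 980 and 1712 had an unadjusted p under 0.05, and DESeq2 called 15 and 20 genes and the likelihood-ratio test 66 and 29. For ELS and LPS the difference was 0.80 (95% interval -1.35 to 2.96) for Gadd45b, -0.21 (-1.35 to 0.92) for Mbd2, 0.16 (-1.11 to 1.43) for Tet1 and 0.00 (-0.52 to 0.52) for Tet2. For ELS and age it was 0.72 (-0.73 to 2.16) for Uhrf1, 0.18 (-0.52 to 0.89) for Dnmt1 and 0.16 (-0.31 to 0.62) for Dnmt3a.

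The genes whose levels over the 50 mice were most like those of a member were found by Pearson's r of log2 CPM among 11053 genes, a description over mice that share groups. For Dnmt1 they were Arsb (0.963), AI506816 (0.942) and Kif20a (0.938), and for Uhrf1 AI506816 (0.944), Anapc5 (0.935) and Pabpc1 (0.935). For Dnmt3a they were Mxd3 (0.898), Kif15 (0.894) and Plin2 (0.893). Gadd45b was most like Ccl12 (0.901), Art3 (0.897) and Pim1 (0.896), Mbd2 like Tirap (0.848), Tet1 like Maf (0.801), Tet2 like Ldhd (0.767), Tet3 like Dctn1 (0.877) and Dnmt3b like Impa2 (0.766). When the group means were removed, Dctn1 (0.866) was still among the 3 genes most like Tet3, AI506816 (0.717) was the first for Uhrf1, and the highest r of Gadd45b was 0.554, with Prkrip1.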

How the data were processed

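The authors deposited 1 table of raw read counts per gene for each mouse. Per the submitters' processing notes, reads were made with bcl2fastq 2.20, trimmed with cutadapt 2.10 and counted with HTSeq 0.11.0 on GRCm39; the strand setting and annotation release are not given in the sources used here. All 50 tables were analysed. The filter kept the 16696 of 53700 genes that reached 1 CPM in over 2 mice. Counts were scaled by TMM and the 6 group means fitted in 1 model with edgeR 4.0.16 (glmQLFit, glmQLFTest; R 4.3.3), with p-values adjusted by Benjamini-Hochberg over all genes and a threshold of 0.05. P-values and intervals of this model measure the spread between mice, taken as independent, and not the spread between nests. RPKM used the union of exons of a GENCODE annotation of GRCm39, in which 52610 of 53700 gene identifiers were found. Alternatives were the likelihood-ratio test, DESeq2 1.42.0, DESeq2 size factors, other filters, the compared groups alone, limma 3.58.1 with nest as a random effect, a replicate block and leaving out each adult. The model code was tested on simulated data. Genes named from a list of roles were taken from its called genes with a mean log2 CPM over all mice of at least 1, among the 4 with the largest change in that comparison; cell type markers were named after their values were seen, and for likeness the 3 genes with the highest r. The members and lists were chosen with earlier results of these data known.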

Additional observations from a re-analysis of the deposited data

Results flagged for a closer look

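In the 36 sets of 1 gene in 1 adult group, 6 held a mouse whose gap to the nearest mouse, relative to the range of its group, was above Dixon's 95% critical value. Chance alone flags about 1 in 20 such sets. Dnmt1 was at 26.0 CPM in P200_2.1_ELS_PBS, with the next mouse at 15.5 CPM, and at 26.7 CPM in P200_8.2_CTR_LPS, with the next at 13.0 CPM. Dnmt3a was at 16.8 CPM in P200_1.1_CTR_PBS, with the next lowest at 51.8 CPM, and at 62.6 CPM in P200_11.2_ELS_LPS, with the next highest at 53.9 CPM. Tet1 was at 6.58 CPM in P200_5.3_CTR_LPS, with the next at 3.60 CPM. Tet3 was at 3.97 CPM in P200_1.1_CTR_PBS, with the next lowest at 23.7 CPM. P200_1.1_CTR_PBS, which gave 2 of the 6, was also 1 of the 3 mice with few detected genes.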

How the results depend on the processing

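The 15 called values of the 9 genes were recomputed under 302 alternatives in all, of which 271 kept the call, 31 lost it and 0 reversed. Of 1452 alternatives of the 66 values that were not called, 15 became called and 86 changed sign while uncalled. With an absolute log2 fold change above 1 as a further condition, 2 instead of 4 genes were called with age in CTR and 2 in ELS, since Dnmt3a and Mbd2 changed by less. Averaged over CTR and ELS, an alternative chosen after seeing the data, 5 genes were called with LPS where ELS alone gave 3. When 1 adult was left out, 3 to 4 genes were called with age in CTR and in ELS, 3 to 4 with LPS in CTR and 2 to 4 with LPS in ELS, and 0 to 0 with ELS in PBS- or LPS-injected adults and in both interactions. Uhrf1 with LPS in CTR lost its call in a fit of the compared groups alone (log2 fold change 1.71, adjusted p = 0.239), in limma voom (2.94, 0.0912) and without any of P200_1.1_CTR_PBS, P200_5.1_CTR_PBS, P200_15.1_CTR_PBS, P200_18.1_CTR_PBS, P200_18.2_CTR_PBS, P200_1.3_CTR_LPS, P200_8.2_CTR_LPS or P200_18.3_CTR_LPS (adjusted p from 0.0556 to 0.125). Mbd2 with age lost its call with edgeR's own filter (adjusted p = 0.0649 in CTR and 0.0647 in ELS), with the compared groups alone in CTR (0.1095) and with limma voom in ELS (0.109). Tet2 with LPS in CTR was called by the likelihood-ratio test (adjusted p = 0.0483), DESeq2 (0.0401) and limma voom (0.0220), without P200_1.1_CTR_PBS (0.0133) and without P200_18.3_CTR_LPS (0.0408), and in ELS without P200_11.2_ELS_LPS (0.0470). Other scaling moved the median of all genes by at most 0.0254 on the log2 scale. The cause of these changes was not tested.

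Deviations of mice of the same nest from their group means did not correlate above 0.1 in any of 10 nests (-0.0411 to 0.0841). Each nest held only 1 or 2 mice per treatment, so these values cannot decide whether the nest numbers pair the mice. The main fit did not pair them. In limma voom the consensus correlation within nests was 0.0778. With nest as a replicate block, 4 genes were called with LPS in CTR and 3 in ELS, as without it. In this fit Tet2 was called in both (adjusted p = 0.0499 and 0.0400), Uhrf1 in CTR was not (log2 fold change 2.25, adjusted p = 0.278), and neither was Mbd2 in ELS (1.51, adjusted p = 0.1003).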
